A study of Rattus norvegicus with 18 samples.

Results

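Id1, Id2, Id3 and Id4, the Notch effectors Hes1, Hes5 and Hey1, and the receptor Notch1 were followed in rat oligodendrocyte progenitor cells (OPCs), the dividing glia that form myelinating oligodendrocytes. The 8 genes were taken by their symbols from the 17337 genes of the deposited files, as regulators known for restraining OPC maturation, and all 8 passed the filter on low values. Total RNA had been sequenced from rat OPCs sorted with magnetic beads (MACS) in 6 groups of 3 libraries, namely aged and neonate OPCs cultured on a soft hydrogel, aged and neonate OPCs cultured on a stiff hydrogel, and aged and neonate primary sorted OPCs. The hydrogels were laminin coated, the culture protocol names FGF and PDGF, and that text is repeated for the primary libraries. For the primary libraries the title's letter alone tells aged from neonate, and neither an age in days or months nor a rat strain is given. Whether the 3 libraries of each group stem from different animals is not stated, and p-values then cover the spread between libraries alone, which may be technical.

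Notch1 is a receptor that is cut when a neighbouring cell presents a Delta or Jagged ligand, and its freed intracellular part joins the DNA-binding protein RBPJ to switch on Hes and Hey genes. Hes1, Hes5 and Hey1 are basic helix-loop-helix repressors, and in the oligodendrocyte lineage Notch signalling is best known for holding progenitors back from maturation. Id proteins have a helix-loop-helix but no DNA-binding region: they bind the E proteins and so keep them from pairing with factors such as Olig1 and Olig2, and bone morphogenetic proteins (BMPs) are known inducers of Id genes.

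The promoters of the direct Notch targets Hes1 and Hes5 are shown because they carry the RBPJ motif searched for. Promoter windows from RefSeq (GRCr8, the 250 bases before each gene's start) were matched by symbol for 7 of the 8 genes, all but Hey1. The motif GTGGGAA, searched on both strands (TTCCCAC on the other), was in 5.27% of 33469 windows of the same length. Hes1 holds 1 forward copy that begins 124 bases before the start. Hes5 holds 1 forward copy that begins 99 bases before the start and 1 copy in the reverse direction that begins 242 bases before it. Id1, Id2, Id3, Id4 and Notch1 hold none in this window. The motif bound by Hes repressors, CACNAG, also searched on both strands, was in 37.2% of windows. Among the members Hes1 and Notch1 each hold 2 forward and 2 reverse copies and the other 5 hold none. In the sequences below, written 5′ to 3′ along each gene's strand, capitals mark the RBPJ motif on either strand. Hes1 lies at chr11:84213046-84213295 on the minus strand and Hes5 at chr5:170804327-170804576 on the plus strand.
Hes1: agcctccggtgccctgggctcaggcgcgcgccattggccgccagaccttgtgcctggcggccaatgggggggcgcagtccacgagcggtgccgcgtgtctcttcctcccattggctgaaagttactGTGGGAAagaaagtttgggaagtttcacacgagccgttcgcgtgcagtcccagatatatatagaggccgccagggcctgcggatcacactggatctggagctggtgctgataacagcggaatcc
Hes5: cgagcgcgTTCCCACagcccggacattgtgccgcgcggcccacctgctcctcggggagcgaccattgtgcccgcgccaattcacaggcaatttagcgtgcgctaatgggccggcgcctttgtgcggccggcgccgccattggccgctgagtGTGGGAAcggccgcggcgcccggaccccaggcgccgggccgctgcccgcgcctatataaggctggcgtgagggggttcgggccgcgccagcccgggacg

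In the files, on rn6, each of the 8 genes has 1 transcript and no overlapping annotated gene. Notch1 lies on chromosome 3 from 3905562 to 3951015 (minus strand) with 34 exons. Hes1 lies on chromosome 11 from 74312837 to 74315249 (minus), Hes5 on chromosome 5 from 172364421 to 172365188 (plus) and Hey1 on chromosome 2 from 95320283 to 95322701 (plus). Id1 lies on chromosome 3 from 148215588 to 148216715 (plus), Id2 on chromosome 6 from 44360077 to 44361908 (minus), Id3 on chromosome 5 from 154489603 to 154491172 (plus) and Id4 on chromosome 17 from 16692557 to 16695126 (minus). The exons of Notch1 sum to 9407 bases, against 592 for Hes5 and 1626 for Id4, the shortest and the longest of the other 7, so Notch1 collects more reads at a given level.

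Levels are scaled TPM: the share of a transcript among all transcripts of its library, corrected for length and then divided by a factor per library. Exonic coverage corresponded to between 33939 and 141883 read pairs per library at 300 bases a pair, and abundant ribosomal entries took 44.5% to 88.8% of the TPM. In 3 libraries, replicate 1 of each aged group, reads were spread over many more genes than elsewhere: the share of olfactory receptor genes with any coverage was 66.9% in the soft one, 54.7% in the stiff one and 77.2% in the primary one. They are called the broad libraries, and results are also given without them. Aged soft replicates 2 and 3, at 39.2% and 30.8%, also lay above every neonate library (at most 18.9%). Those soft replicates stay in the fits without the broad libraries, which are therefore not free of this spread on the soft gel. At this depth a value of 0 may stand for too few reads. Over the 8 members 39 of 72 aged values (54.2%) and 13 of 72 neonate values (18.1%) were listed at 0, while over all 15144 genes tested the shares were 35.1% in aged and 47.8% in neonate libraries. Without the 3 broad libraries, 30 of 48 aged member values (62.5%) and 45.9% of the aged values of all genes were at 0. Estimated read pairs summed over the 9 aged and the 9 neonate libraries were 109 and 491 for Notch1, 2.72 and 42.1 for Id3, and 0.625 and 8.20 for Hes5. They were 13.6 in aged and 29.7 in neonate libraries for Id2, 8.75 and 17.0 for Id1, 7.53 and 13.6 for Hes1, and 9.81 and 12.2 for Hey1. Id4 was the 1 member with more pairs in aged libraries, 14.3 against 6.61, and 13.2 of the aged pairs came from aged soft replicate 3.

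**Figure D1:**
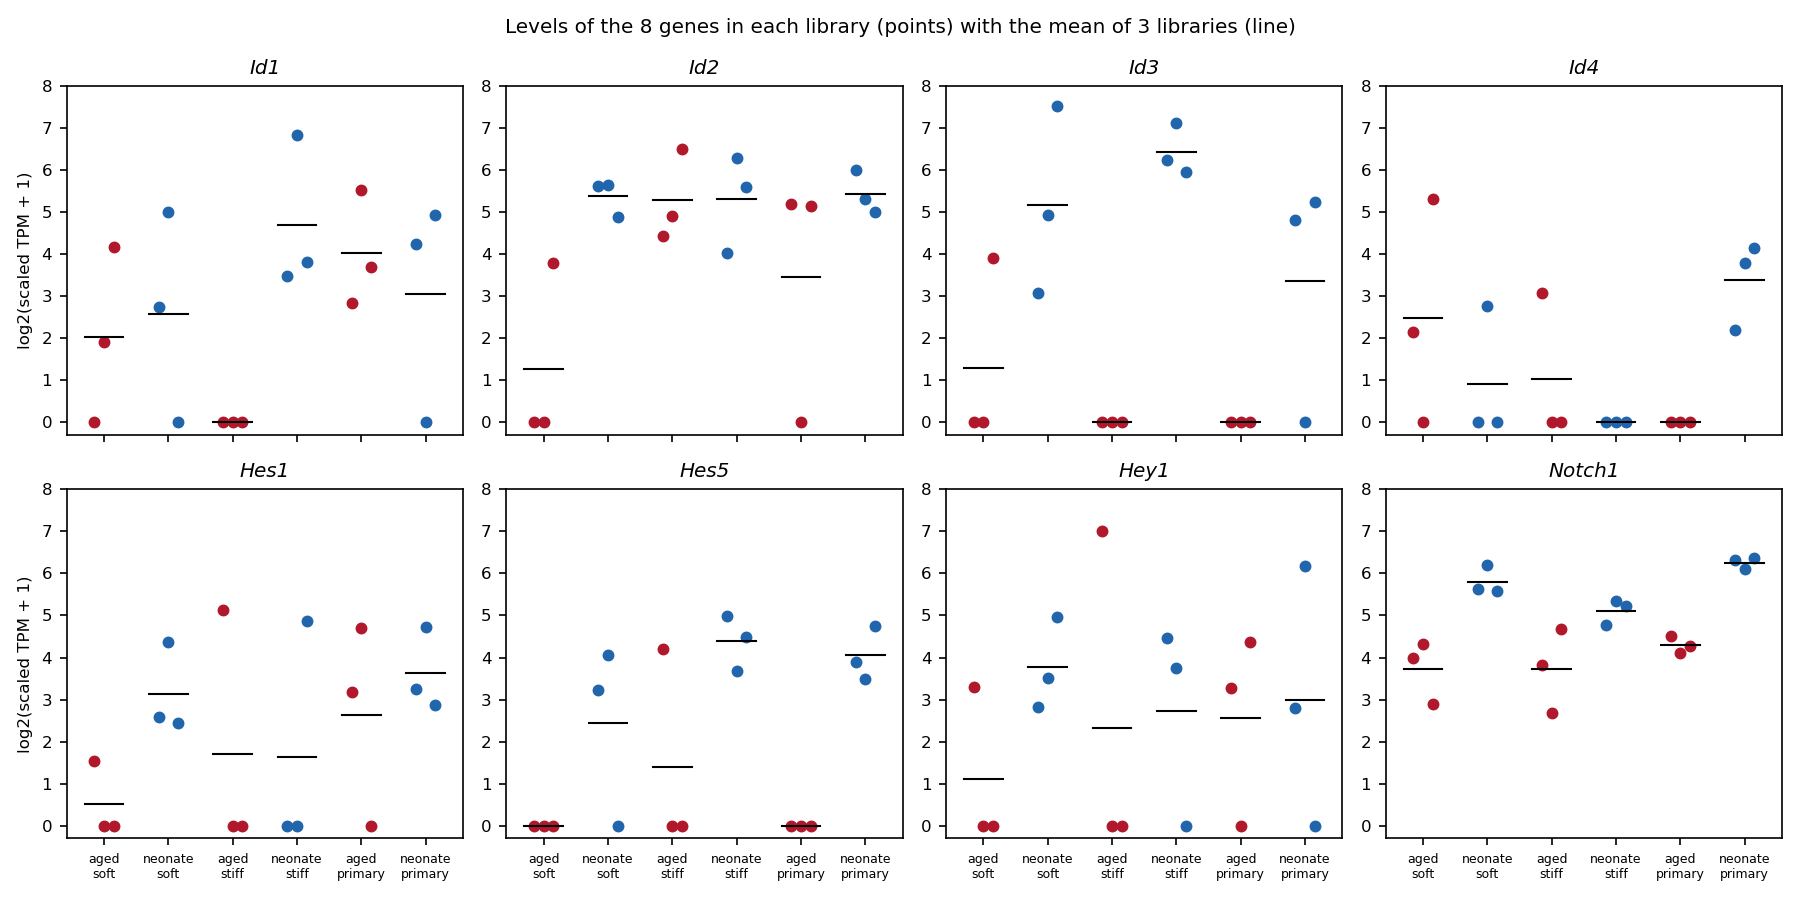
Each panel shows 1 gene, with log2(scaled TPM + 1) on the vertical axis and the 6 groups along the horizontal axis; points are libraries (red aged, blue neonate) and lines are means of 3 libraries. Notch1 was above 0 in all 18 libraries, with the 9 aged libraries at 5.4 to 24.4 and the 9 neonate libraries at 26.2 to 81.3 scaled TPM, whereas Id3 and Hes5 were each above 0 in 1 of 9 aged and 8 of 9 neonate libraries.

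The first question was whether these genes differ with the age of the cells. Averaged over the soft gel, the stiff gel and the primary cells, Id3, Hes5, Id2 and Notch1 were lower in aged than in neonate OPCs. These were 4 of 8 members called lower by limma at an adjusted p below 0.05, against 2.72% of all 15144 genes called lower and 10.7% called in either direction. The members were chosen with earlier results of these data known, so the shares set side by side here are a description and not a test. The differences of all 8 members were below 0, with a median of -1.62 on the log2(scaled TPM + 1) scale, against a median of 0.70 over all genes tested, of which 28.1% were below 0. The median of all genes was lower, and more genes were called lower, without the broad libraries or with quantile normalization (values at the end). The sign of Id4 was positive (0.21) with voom, limma's method for counts, run on read pair estimates. The direction of the other 7 was the same without scaling, with quantile normalization and with voom. Id3 and Hes5 passed the filter on low values only through neonate libraries, each being above 0 in 1 of 9 aged libraries. Their place among the genes tested thus rests on the group where they were high. In bulk RNA, fewer cells of a type and less RNA per cell cannot be told apart.

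Notch1 was the member with the most reads and the 1 member above 0 in all 18 libraries. On the soft gel it was at 14.9, 18.9 and 6.4 scaled TPM in aged libraries, against 48.3, 72.3 and 46.6 in neonate libraries. Stiff gel libraries were at 13.1, 5.4 and 24.4 in aged cells and at 26.2, 39.4 and 36.1 in neonate libraries. In primary cells it was at 21.9, 16.1 and 18.5 in aged libraries, against 78.5, 67.7 and 81.3 in neonate libraries. Aged and neonate libraries did not overlap in any of the 3 settings, nor when all 9 were set against all 9. The mean difference over the settings was -1.80 (SE 0.39, 95% interval -2.61 to -1.0; limma, adjusted p = 0.00323). It was -1.89 without the broad libraries (limma, adjusted p = 0.00555).

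By group means, Notch1 was lower in each aged group than in each neonate group. The aged means were 18.8 ± 2.89 scaled TPM in primary cells, 14.3 ± 9.56 on the stiff gel and 13.4 ± 6.38 on the soft gel (SD, n = 3 each). The neonate means were 75.8 ± 7.22 in primary cells, 55.7 ± 14.4 on the soft gel and 33.9 ± 6.89 on the stiff gel (SD, n = 3 each). Neonate primary and neonate soft libraries overlapped, since soft replicate 2 lay above primary replicate 2, and so did the 3 aged groups among themselves. Neonate soft and neonate stiff libraries did not overlap, nor did neonate stiff and aged primary libraries.

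Reads lay along the Notch1 transcript in both ages. Summed over 9 libraries, 24 of 34 exons were covered in aged and 28 in neonate OPCs. The last exon, exon 34, of 3031 bases, held 55.8 estimated pairs in aged and 247 in neonate libraries. Exon 16, of 120 bases, held 8.73 pairs in aged and 54.5 in neonate libraries. Neonate libraries had more pairs in 26 exons and aged libraries in 3, so the difference in reads was not limited to 1 end of the gene. A single library covered between 1 and 16 exons among aged and between 10 and 23 among neonate cells.

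**Figure D2:**
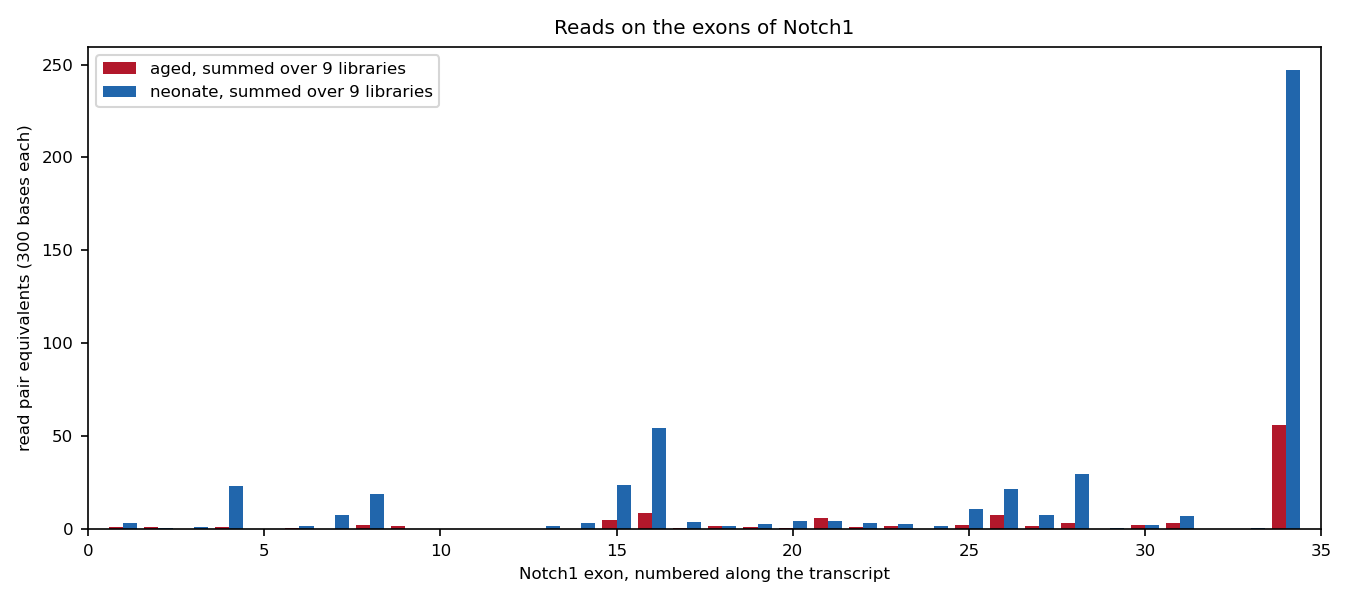
Bars give read pair equivalents (300 bases each) on each Notch1 exon, numbered along the transcript, summed over 9 aged (red) and 9 neonate (blue) libraries. Exon 34 holds the most in both ages, 55.8 pairs in aged and 247 in neonate libraries, and in exon 16 they are 8.73 and 54.5.

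Hes5, a Notch target that is known to repress myelin genes, was listed at 0 in 8 of 9 aged libraries. Soft gel libraries were at 0, 0 and 0 scaled TPM in aged cells and at 8.3, 15.8 and 0 in neonate cells. Stiff gel libraries were at 17.3, 0 and 0 in aged libraries and at 30.9, 11.7 and 21.4 in neonate libraries. In primary cells it was at 0, 0 and 0 in aged libraries and at 13.9, 10.2 and 26.0 in neonate libraries. The 1 aged library above 0, aged stiff replicate 1, is a broad one and lay within the neonate range, so the groups overlapped on the stiff gel, as they did on the soft gel at 0. Only primary cells showed no overlap. There the neonate values rest on 1.33, 0.517 and 1.64 estimated read pairs, and no library of the series held more Hes5 pairs than 1.64. The mean difference over the settings was -3.15 (SE 0.72; limma, adjusted p = 0.00492), but with voom it was -0.85 (adjusted p = 0.127). With 8 of 9 aged libraries at 0, the limma size depends on the value of 1 added before the logarithm.

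Hes1 and Hey1 were not called in any comparison of age. Hes1, a repressor that Notch and other signals switch on, was above 0 in 4 of 9 aged and 7 of 9 neonate libraries. Its highest values were 33.9 scaled TPM in aged stiff replicate 1 and 28.3 in neonate stiff replicate 3, and its mean difference over the settings was -1.18 (95% interval -2.94 to 0.59; limma, adjusted p = 0.344). Hey1, a repressor of the same family, was likewise above 0 in 4 of 9 aged and 7 of 9 neonate libraries. It was highest at 126.8 in aged stiff replicate 1, a broad library, and next at 71.4 in neonate primary replicate 2, with a mean difference of -1.17 (95% interval -3.19 to 0.85; limma, adjusted p = 0.414). Both genes had at least 1 library at 0 in each of the 3 aged groups.

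Id3, an E protein partner known as a BMP target, had the largest mean difference with age of the 8 members on the log2(scaled TPM + 1) scale. It was at 0, 0 and 13.9 scaled TPM in aged libraries and at 7.4, 29.7 and 181.8 in neonate libraries of the soft gel. On the stiff gel it was at 0, 0 and 0 in aged libraries and at 74.5, 137.8 and 61.0 in neonate libraries. In primary cells it was at 0, 0 and 0 in aged libraries and at 27.0, 0 and 37.0 in neonate libraries. The ages did not overlap on the stiff gel, overlapped through aged soft replicate 3 on the soft gel, and met at 0 in primary cells. The mean difference was -4.55 (SE 0.76; limma, adjusted p = 0.000182). That size depends on the value of 1 added before the logarithm, since only 1 aged library was above 0. Reads covered all 3 Id3 exons in each of the 6 cultured neonate libraries and 1 exon in the 1 aged library above 0.

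Id2, known to keep OPCs dividing and to delay their maturation, was above 0 in all 9 neonate libraries. Its soft gel levels were 0, 0 and 12.9 scaled TPM in aged libraries, against 48.1, 49.2 and 28.7 in neonate libraries. Its stiff gel levels were 20.7, 29.2 and 89.2 in aged libraries and 15.4, 77.6 and 47.7 in neonate libraries. In primary cells it was at 35.8, 0 and 34.2 in aged libraries and at 63.4, 38.6 and 31.2 in neonate libraries. Aged libraries lay below neonate ones without overlap on the soft gel, while on the stiff gel and in primary cells the ages overlapped. The mean difference was -2.05 (SE 0.65; limma, adjusted p = 0.0419). This call was not kept without the broad libraries (limma, adjusted p = 0.0879). It was also lost, at an adjusted p of up to 0.0823, when any single library was left out other than aged primary replicate 1, aged primary replicate 3, aged soft replicate 3, aged stiff replicate 3 or neonate stiff replicate 1.

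Id1 and Id4 were not called with age. Id1, the BMP-responsive relative of Id3, was at 0, 0 and 0 scaled TPM in aged stiff libraries, against 10.1, 112.8 and 13.0 in neonate stiff libraries. In primary cells it was at 6.1, 45.4 and 11.9 in aged libraries and at 17.9, 0 and 29.6 in neonate libraries. Soft gel levels were 0, 2.8 and 17.1 in aged libraries and 5.7, 31.0 and 0 in neonate libraries. The ages were apart on the stiff gel and overlapped in the other 2 settings, and the mean difference was -1.43 (95% interval -3.08 to 0.21; limma, adjusted p = 0.217). Id4, which binds Olig1 and Olig2 in studies of cultured OPCs, was listed at 0 in all aged primary and all neonate stiff libraries. It was at 0, 0 and 0 in aged primary libraries, against 3.6, 12.9 and 16.7 in neonate primary libraries. Soft gel libraries were at 3.5, 0 and 39.1 in aged cells and at 0, 5.8 and 0 in neonate cells. Its mean difference was -0.26 (95% interval -1.80 to 1.28; limma, adjusted p = 0.830).

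**Figure D3:**
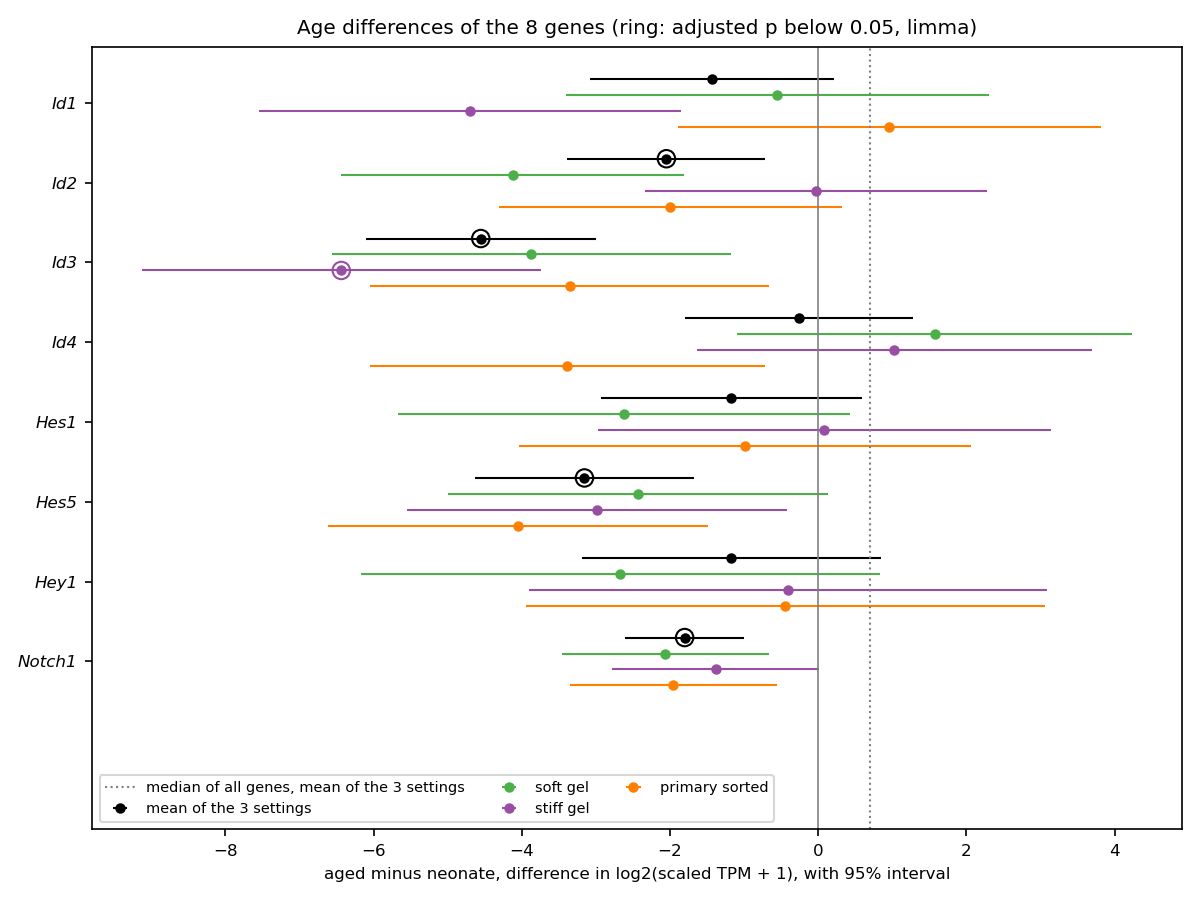
Points are the differences aged minus neonate in log2(scaled TPM + 1) with 95% intervals from limma, for each gene as the mean of the 3 settings (black), on the soft gel (green), on the stiff gel (purple) and in primary cells (orange); rings mark an adjusted p below 0.05. Of the black points Id2, Id3, Hes5 and Notch1 are ringed, and Id3 is also ringed on the stiff gel, where its difference is -6.44; the dotted line is the median of all genes, 0.70.

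Taken setting by setting, 3 libraries against 3 gave fewer calls. On the soft gel 0 of 8 members were called by limma, where 1.56% of all genes were, with 3 members at an unadjusted p below 0.05 (16.6% of all genes) and 1 member, Notch1, called by voom (adjusted p = 0.000246), which called 6.21% of all genes. The limma differences there were -4.12 for Id2 (adjusted p = 0.0611), -3.87 for Id3 (adjusted p = 0.140) and -2.07 for Notch1 (adjusted p = 0.129). Leaving out aged primary replicate 1, aged primary replicate 2 or aged soft replicate 3 brought Id2 under the threshold (limma, adjusted p = 0.0446, 0.0181 and 0.0183). On the stiff gel 1 of 8 members was called lower, Id3, against 1.06% of all genes called lower and 2.19% called in either direction. Its difference was -6.44 (SE 1.31; limma, adjusted p = 0.00557). Since all 3 aged stiff libraries are at 0, that size depends on the value of 1 added before the logarithm and gives no fold. Id1 followed at -4.70 (limma, adjusted p = 0.0780), with an adjusted p of 0.0499 without neonate primary replicate 2. Id1, too, was at 0 in all 3 aged stiff libraries, so its size depends on the added value and gives no fold. Hes5 was at -2.98 (limma, adjusted p = 0.284), with an adjusted p of 0.0454 without the broad libraries, and Notch1 was at -1.38 (limma, adjusted p = 0.376).

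In primary cells 0 of 8 members were called by limma, where 2.50% of all genes were, with 4 members at an unadjusted p below 0.05 (12.6% of all genes) and 1 member, Notch1, called by voom (adjusted p = 0.000318), which called 6.45% of all genes. The largest limma differences were -4.05 for Hes5 (adjusted p = 0.0891), -3.38 for Id4 (adjusted p = 0.215), -3.35 for Id3 (adjusted p = 0.230), -2.0 for Id2 (adjusted p = 0.514) and -1.96 for Notch1 (adjusted p = 0.151). Hes5, Id4 and Id3 were at 0 in all aged primary libraries, so their sizes depend on the value added before the logarithm and give no fold. Leaving out aged stiff replicate 1, which enters through the shared spread, brought Hes5 to an adjusted p of 0.0392 (limma). Without the broad libraries 0 members were called by limma on the soft gel and 0 in primary cells.

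The cells in the libraries differed with age as well. Summed over the 14 OPC marker genes in the files, levels were 401 to 728 scaled TPM in aged and 1504 to 2134 in neonate libraries on the soft gel. They were 140 to 531 in aged and 1381 to 2194 in neonate libraries on the stiff gel, and 214 to 264 in aged and 1029 to 1147 in neonate primary libraries. In the mean over settings 10 of these 14 genes fell in aged libraries. Microglia markers, 16 genes, summed to 3519 to 6629 in aged primary libraries, above the OPC sum of the same libraries, against 147 to 325 in neonate primary libraries. On the soft gel they summed to 798 to 1435 in aged and 52.8 to 132 in neonate libraries, and on the stiff gel to 388 to 1001 in aged and 37.2 to 63.8 in neonate libraries; 16 of 16 rose in the mean over settings. The part of OPC and microglia content in the results for Notch1, Id3, Hes5 and Id2 was not tested.

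Markers of other cells in which these genes are known to be active were also read. The 10 astrocyte markers summed to 66.8 to 172 scaled TPM in aged soft, against 215 to 389 in neonate soft libraries, and to 43.3 to 171 in aged stiff, against 229 to 381 in neonate stiff libraries. In primary cells the astrocyte sums overlapped, at 132 to 238 in aged and 187 to 235 in neonate libraries. In the mean over settings 3 of 10 markers, Gfap, Aldoc and Sox9, were called lower with age and none higher. Gfap was at 0 to 27.4 in aged cultured libraries against 47.3 to 208 in neonate cultured libraries, and overlapped in primary cells. On the stiff gel Gfap, at 114, 170 and 78.7 in neonate and 13.1, 0 and 13.2 in aged libraries, was a large part of the neonate sums. Aldoc, Sox9, Aqp4, Slc1a2, Slc1a3, Gja1, S100b and Aldh1l1 each overlapped between the ages on that gel. S100b, at 14.2 to 21.1 in aged and 0 in neonate primary libraries, and Aqp4, at 7.95 to 12.5 and 1.17 to 5.26, were higher in aged primary cells. Aldoc, Sox9 and Gja1 were lower there, also without overlap. The 11 endothelial markers summed to 75.8 to 181 in aged soft, against 7.47 to 16.5 in neonate soft libraries, and to 19.98 to 190 in aged stiff, against 0 to 19.8 in neonate stiff libraries. In primary cells the endothelial sums were 59.2 to 265 in aged and 37.6 to 41.7 in neonate libraries, and 2 of 11 markers rose with age. Of the 11, between 2 and 4 were above 0 in a neonate soft and between 0 and 3 in a neonate stiff library, and the defining markers Cldn5, Cdh5 and Pecam1 were at 0 in these 6 libraries. In the 6 aged cultured libraries Cldn5 was above 0 in 2, Pecam1 in 3 and Cdh5 in 5, at up to 11.3, 6.77 and 23.0. The highest endothelial sum of each aged group was that of its broad library. Pericyte markers, 6 genes, summed to 14.7 to 172 over the aged and 0 to 33.8 over the neonate libraries, with 1 of 6 higher in aged cells. Of 10 mature oligodendrocyte markers 2 rose (Mobp and Opalin) and 1 fell (Mog), and of 8 neuron markers 2 fell (Dcx and Stmn2). The part of these cell types in the results for the 8 genes was not tested.

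Set against the summed OPC markers of the same library, Notch1 no longer stood apart by age in 2 of the 3 settings. With soft gels it amounted to 3.51%, 4.71% and 0.878% of the OPC sum in aged libraries and to 3.21%, 3.60% and 2.18% in neonate libraries. In primary cells it amounted to 10.2%, 6.5% and 7.01% in aged libraries and to 7.29%, 6.57% and 7.09% in neonate libraries. On the stiff gel it was 3.86%, 3.87% and 4.60% in aged libraries, above the 1.90%, 2.48% and 1.65% of neonate libraries. Scaled to this sum, Notch1 therefore overlapped between ages on the soft gel and in primary cells and was higher in aged libraries on the stiff gel. Id2 amounted to 0% to 1.77% of the OPC sum in aged soft and 1.35% to 3.20% in neonate soft libraries. It was 6.07% to 20.8% in aged stiff, above the 1.11% to 4.88% of neonate stiff libraries, and 0% to 16.7% in aged primary, overlapping the 2.72% to 5.89% of neonate primary libraries. Id3 was 0% to 1.91% in aged soft and 0.492% to 8.52% in neonate soft libraries, 0% in aged stiff and 2.78% to 8.67% in neonate stiff libraries, and 0% in aged primary and 0% to 3.22% in neonate primary libraries. Hes5 was 0% in aged soft and 0% to 0.787% in neonate soft libraries, 0% to 5.09% in aged stiff and 0.739% to 2.24% in neonate stiff libraries, and 0% in aged primary and 0.992% to 2.27% in neonate primary libraries. These shares are descriptions, with no test.

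**Figure D4:**
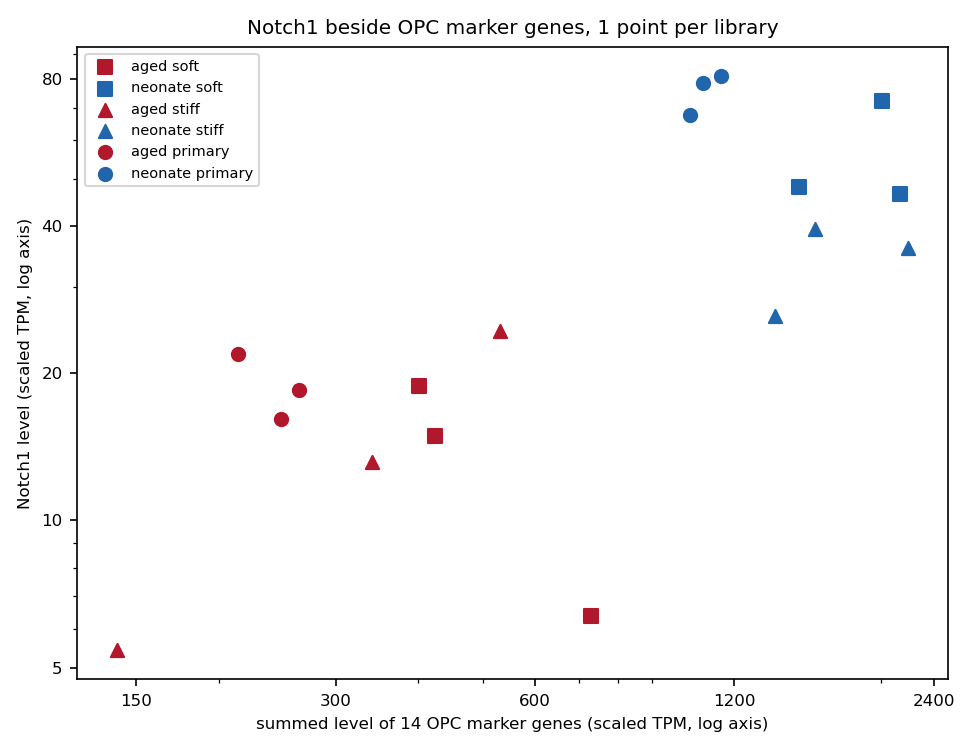
Each point is a library, with the summed level of 14 OPC marker genes on the horizontal log axis and the Notch1 level on the vertical log axis, both in scaled TPM (red aged, blue neonate; squares soft gel, triangles stiff gel, circles primary). Aged libraries lie at OPC sums of 140 to 728 and Notch1 levels of 5.4 to 24.4, below and to the left of neonate libraries at sums of 1029 to 2194 and levels of 26.2 to 81.3.

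The second question was whether the stiffness of the gel changed these genes. In aged OPCs 0 of 8 members were called between soft and stiff gels by limma, where 0.0792% of all genes were, with 1 member at an unadjusted p below 0.05 (10.9% of all genes) and 0 called by voom. That member was Id2, at 0, 0 and 12.9 scaled TPM on the soft gel and 20.7, 29.2 and 89.2 on the stiff gel. The soft libraries lay below the stiff ones without overlap, with a difference of -4.02 (95% interval -6.33 to -1.70; limma, adjusted p = 0.181). Notch1 differed by 0.0046 between soft and stiff gels in aged cells (95% interval -1.39 to 1.40), an interval that still holds changes of more than 1 in either direction. Id1 was above 0 in 2 of 3 aged soft libraries and listed at 0 in all 3 aged stiff libraries (limma, adjusted p = 0.653).

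In neonate OPCs 0 of 8 members and 0% of all genes were called between soft and stiff gels by limma, with 0 members and 439 genes at an unadjusted p below 0.05; voom called 0 members and 6 genes. Notch1, at 48.3, 72.3 and 46.6 on the soft gel and 26.2, 39.4 and 36.1 on the stiff gel, was apart between the gels. Its difference was 0.69 (95% interval -0.71 to 2.09; limma, adjusted p = 1). Id3 and Hes5 had lower neonate means on soft than on stiff gels, with differences of -1.26 (95% interval -3.95 to 1.43) and -1.95 (95% interval -4.51 to 0.61). Id3 and Hes5 overlapped between the gels.

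The change of the gel effect with age was tested as an interaction. Of the members 0 were called by limma, where 0.00660% of all genes were, with 2 at an unadjusted p below 0.05 (5.26% of all genes) and 0 called by voom. These 2 were Id2, at -4.09 (95% interval -7.36 to -0.82; limma, adjusted p = 0.863), and Id1, at 4.15 (95% interval 0.12 to 8.18; limma, adjusted p = 0.942). The soft minus stiff difference of Id2 was -4.02 in aged and 0.08 in neonate cells, and the difference between these values did not pass the test.

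The third question was how culture on a gel differed from the primary cells. In aged OPCs 0 of 8 members were called between cultured and primary libraries by limma, where 1.03% of all genes were, with 1 member at an unadjusted p below 0.05 (9.69% of all genes) and 0 called by voom. That was Id1, at 0 to 17.1 scaled TPM in the 6 cultured libraries and 6.1 to 45.4 in the 3 primary libraries, with a difference of -3.00 (limma, adjusted p = 0.344). In neonate OPCs 0 of 8 members were called by limma, where 0.0924% of all genes were, with 2 members at an unadjusted p below 0.05 (4.72% of all genes) and 0 called by voom. Id3 was at 7.4 to 181.8 in the 6 cultured libraries and at 27.0, 0 and 37.0 in primary libraries, a difference of 2.45 (limma, adjusted p = 1). Id4 was at 0 in 5 of 6 cultured libraries and 5.8 in the other one, against 3.6, 12.9 and 16.7 in primary libraries, a difference of -2.92 (limma, adjusted p = 0.759). Notch1 differed by -0.57 (95% interval -1.78 to 0.64) in aged and by -0.81 (95% interval -2.02 to 0.40) in neonate cells.

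The change of the culture effect with age was called for 0 of 8 members by limma, where 0.112% of all genes were called, with 2 members at an unadjusted p below 0.05 (5.58% of all genes) and 0 called by voom. They were Id4, at 4.68 (95% interval 1.42 to 7.95; limma, adjusted p = 0.588), and Id1, at -3.59 (95% interval -7.08 to -0.10; limma, adjusted p = 0.868). Without the broad libraries, too, 0 members were called by limma in the comparisons of gel, of culture and of both interactions.

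Other genes of the pathways were read in the same fit, as differences in log2(scaled TPM + 1) averaged over the 3 settings. Of 26 further Notch pathway genes in the files, 1 rose and 2 fell in aged libraries, with a median difference of 0.66 against 0.70 over all genes. Each list's count stands against the 10.7% of all genes called in this comparison, and these 3 of 26 are near that share. Cntn1, a cell surface ligand of Notch in the oligodendrocyte lineage, fell with age (difference -2.28; limma, adjusted p = 0.00382). It was at 33.8, 18.3 and 15.4 scaled TPM in aged soft and 110, 90.6 and 125 in neonate soft libraries, apart without overlap, as it was in primary cells. On stiff gels the ages overlapped, with aged libraries at 2.08, 15.1 and 72.0 and neonate libraries at 44.0, 46.9 and 101. Nrarp, a Notch target whose product dampens Notch signalling, fell by 2.47 (limma, adjusted p = 0.0155), at 4.84, 0 and 0 in aged soft and 15.9, 32.4 and 21.6 in neonate soft libraries. Nrarp overlapped elsewhere, at 2.68, 0 and 3.17 in aged stiff and 2.21, 21.7 and 7.21 in neonate stiff libraries, and at 18.5, 0 and 4.18 in aged primary and 13.6, 16.6 and 22.3 in neonate primary libraries. Numb, an adaptor known to oppose Notch, rose by 2.48 (limma, adjusted p = 0.00936), at 46.7, 23.2 and 20.7 in aged primary and 12, 4.42 and 5.65 in neonate primary libraries. On soft gels it overlapped, with aged libraries at 12.5, 24.6 and 29.7 and neonate libraries at 1.96, 0 and 14.7. On stiff gels the aged libraries, at 6.65, 86.1 and 30.8, lay above the neonate libraries, at 6.33, 0 and 5.82. With quantile normalization Numb was not called (limma, adjusted p = 0.169).

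Among 10 Hes and Hey relatives and Groucho co-repressors, 1 fell and none rose (median difference 0.13). This was Hes6, known as an antagonist of Hes1, at a difference of -4.08 (limma, adjusted p = 3.25e-05). It was at 5.53, 0 and 0 scaled TPM in aged primary and 73.0, 67.8 and 30.6 in neonate primary libraries. It was listed at 0 in all 3 aged stiff libraries, against 13.2, 19.9 and 24.3 in neonate stiff libraries. Hes6 was also called lower in primary cells (difference -4.86; limma, adjusted p = 0.00821) and on the stiff gel (difference -4.29; limma, adjusted p = 0.0215). The primary call was lost without aged primary replicate 2 or 3 or neonate primary replicate 1 or 2 (Hes6, limma, adjusted p of up to 0.0552), and the stiff call without any 1 of the neonate stiff libraries (Hes6, limma, adjusted p of up to 0.0964). The primary call was also lost with a pseudocount of 0.1 (Hes6, limma, adjusted p = 0.0539), and the stiff call without scaling, with only the groups compared and with voom (Hes6, adjusted p of up to 0.225).

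The Id binding partners are the 3 E proteins, of which 2 fell. Tcf4 fell by 2.90 (limma, adjusted p = 9.51e-05) and Tcf3 by 2.41 (limma, adjusted p = 0.00613). Tcf4 was at 5.85, 0 and 9.40 scaled TPM in aged stiff and 109, 40.3 and 80.4 in neonate stiff libraries, where it was called as well (difference -4.12; limma, adjusted p = 0.00314). Tcf3 was at 4.84, 8.10 and 6.37 in aged primary and 55.2, 39.3 and 24.7 in neonate primary libraries. Neither overlapped between the ages in any of the 3 settings. Without scaling, or with only the groups compared, Tcf4 was not called on the stiff gel (limma, adjusted p of up to 0.0796).

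Of 19 BMP pathway genes tested, 2 rose and 1 fell (median difference -0.51). Eng, a co-receptor known from endothelium, rose by 3.06 (limma, adjusted p = 0.00536), at 28.9, 68.3 and 46.5 scaled TPM in aged primary and 3.93, 0 and 8.78 in neonate primary libraries. It was listed at 0 in all 6 cultured neonate libraries and in aged stiff replicate 3, so the ages met at 0 on the stiff gel. Bambi, a decoy receptor that limits BMP signalling, rose by 3.26 (limma, adjusted p = 0.00719) and was listed at 0 in all 9 neonate libraries and in replicate 3 of both aged gel groups. Eng and Bambi passed the filter on low values only through aged libraries, the group where they were high. With every neonate library at 0, the size for Bambi depends on the value of 1 added before the logarithm and gives no fold. Bmpr2, a BMP receptor, fell by 1.78 (limma, adjusted p = 0.0429). The levels of Bmpr2 were 2.39, 0.524 and 12.8 in aged soft and 25.3, 6.52 and 23.0 in neonate soft libraries, which overlapped, as did the primary ones. Its call was lost when any 1 library was left out other than aged primary replicate 2, aged soft replicate 3, aged stiff replicate 1 or 3, neonate soft replicate 2 or neonate stiff replicate 3 (Bmpr2, limma, adjusted p of up to 0.0882).

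Drivers of maturation and other restraints of it were read the same way. None of the drivers rose, and Sox10, Olig1 and Olig2 were among those that fell. Sox10, which activates myelin genes, had a difference of -3.31 (limma, adjusted p = 7.13e-06), Olig1 of -3.05 (limma, adjusted p = 6.42e-05) and Olig2 of -2.43 (limma, adjusted p = 0.00546). Of 6 other restraints 2 fell, namely Sox6 at -3.46 (limma, adjusted p = 0.00031) and the growth factor receptor Pdgfra at -2.97 (limma, adjusted p = 0.000464). Sox10, Olig1, Olig2, Sox6 and Pdgfra are also among the 14 OPC markers, so their counts are not separate from that list. By setting, Sox10 was called lower on the stiff gel at -4.51 (limma, adjusted p = 0.000681) and on the soft gel at -2.89 (limma, adjusted p = 0.0456), the second lost in 13 of 18 fits without 1 library, all but those without aged primary replicate 1 or 3 or an aged stiff library. Olig1 was called lower in primary cells at -4.50 (limma, adjusted p = 0.0019), Pdgfra at -4.54 (limma, adjusted p = 0.00617) and Sox6 at -4.16 (limma, adjusted p = 0.0265). The Pdgfra call was lost without aged primary replicate 2 or 3, and the Sox6 call without those or any 1 neonate primary library. Olig1 was the 1 pathway gene called for culture: in aged cells it was at 184, 180 and 252 on the soft gel and 68.7, 11.5 and 260 on the stiff gel, against 3.81, 9.50 and 64.1 in primary libraries (difference 2.91; limma, adjusted p = 0.0374). That call was lost without the broad libraries (Olig1, limma, adjusted p = 0.240) and without any 1 of aged primary replicates 1 and 2, aged soft replicates 2 and 3, aged stiff replicates 1 and 3 and neonate primary replicate 2 (Olig1, limma, adjusted p of up to 0.243).

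As a description, the genes whose log2 levels followed each member most closely over the 18 libraries were found among 8998 genes above 0 in at least 9 of them. The 18 libraries share age, depth and cell content, so these coefficients carry no test. For Notch1 they included Tcf3 (Pearson r = 0.90) and Trpv6 (0.86). For Id3 they were Marcksl1 (0.86), Arhgef39 (0.84) and Scd2 (0.84), and for Hes5 Kcnd2 (0.81), Cd24 (0.80) and Camk2n2 (0.80). For Id2 they were Snapc3 (0.78), RGD1303003 (0.78) and Rnf215 (0.74), and for Id1 Hist1h2af (0.79), Ube2s (0.76) and Rpl41 (0.74). For Hes1 they were Med20 (0.81), Dclre1b (0.79) and Hsd3b7 (0.79), and for Hey1 Thra (0.83), Hapln2 (0.78) and Rtcd1 (0.78). Id4 was above 0 in only 7 libraries and was not ranked. Among the members themselves the highest coefficient was that of Hes5 with Notch1, 0.62.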

How the data were processed

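Total RNA from 18 libraries (6 groups of 3) was made with a stranded kit for small inputs and sequenced in pairs of 150 bases. Per the file headers, the authors' deposited files hold TPM, FPKM and coverage of annotated rn6 transcripts from StringTie 1.3.2d, with no strand option. The submitters' processing notes also name Trimmomatic, HISAT2 and Bowtie, without role or version. TPM was summed per gene and scaled by the median of ratios over the 1644 genes detected in every library. Read pairs were estimated from coverage times length at 300 bases a pair, so an estimate can be below 1. The 15144 genes that reached a TPM of 1 in 3 or more libraries were fitted as log2(scaled TPM + 1) in limma 3.58.1 (R 4.3.3), with a variance trend, 6 group means and Benjamini-Hochberg adjustment over all genes (threshold 0.05). The fit was tested on simulated data for the primary comparison alone. Changes were placed only in genes with more reads than any member but Notch1 had on average, so that test does not bear on the other members.

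Members and lists were chosen with earlier results of these data known. From the pathway lists, each gene called in a comparison is named. For each member above 0 in at least 9 libraries, the 3 most correlated genes are named. Genes that these rules select but the text does not name are not reported here. Numbers in the file headers differ from those in the titles in 12 libraries, so replicate numbers were not taken to pair samples. Alternatives changed the pseudocount (0.1), the filter (none, or a TPM of 5), the scaling (none, or quantile normalization), the method (voom on estimated pairs, array weights), the samples (only the groups compared, or all but 1 library) and the design (a replicate block); leaving out the 3 broad libraries was added after seeing the data.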

Additional observations from a re-analysis of the deposited data

How the results depend on the processing

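No called difference of a member changed direction. The number of members called in primary cells was 0, but 1 without scaling, with quantile normalization and with voom, 2 with only the groups compared and 3 with array weights, and 0 to 1 with each library left out. On the soft gel it was 0, but 2 with quantile normalization and 1 with voom, and 0 to 1 with each library left out. On the stiff gel it was 1, but 2 without the 3 broad libraries, and 1 to 2 with each library left out. In the mean over settings it was 4, but 2 with voom, 3 with a pseudocount of 0.1, no filter, no scaling, array weights or without the 3 broad libraries, and 3 to 4 with each library left out (3 in 13 of 18). Between cultured and primary neonate cells it was 0, but 1 with array weights. With the replicate block the soft gel gave 1 member, Id2 (limma, adjusted p = 0.0470), the mean over settings gave 4 members and 2008 genes, and the other comparisons gave the same number of members. Deviations of libraries with the same number had a median correlation of 0.0125 (45 pairs, -0.0937 to 0.233), against -0.00234 for other numbers (90 pairs). The cause of these changes was not tested.

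In the mean over settings, Notch1 and Id3 were called in 9 of 9 other settings and with each of 18 libraries left out, at an adjusted p of at most 0.0135 and 0.00328. These fits reuse the same libraries. Id3, above 0 in 1 of 9 aged libraries, passed the filter on low values only through neonate libraries, so they are not separate support for its call. Hes5 lost its call with voom alone, and Id2 in 6 of 9 settings. Genes called in that comparison numbered 1613, 1201 higher and 412 lower. Quantile normalization gave 612 higher and 849 lower, and moved the median of all genes to 0.05. Leaving out the 3 broad libraries gave 845 higher and 532 lower, with a median of 0.12. Genes called numbered 154 to 1148 in primary cells, 104 to 940 on the soft gel, 114 to 686 on the stiff gel and 1133 to 3238 in their mean. They numbered 0 to 113 between gels in aged and 0 to 6 in neonate cells, 43 to 436 between cultured and primary aged and 3 to 191 between cultured and primary neonate cells, and 0 to 7 and 2 to 85 for the interactions with gel and with culture. Depth limits every member: the other 7 had medians of 0 to 2.35 estimated pairs per library, and Notch1, with a median of 20.4, had 2.26 to 19.6 in the aged libraries.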
